A study of Saccharomyces cerevisiae with 18 samples.

Results

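RNA levels were compared between a diploid Saccharomyces cerevisiae strain growing in 3% ethanol by volume and the same strain growing without added ethanol. The comparison set 2 arrays of the diploid at 3% against 2 arrays of the diploid at 0%, chosen by their sample titles from the 18 arrays of the series. Each array is a yeast Affymetrix array hybridised with biotin-labelled total RNA of 1 sample. The other arrays used here are 2 of the diploid at 7% ethanol, and 2 each of the haploid labelled alpha at 3% and 0% and of the haploid labelled a at 3% and 0%. The 4 arrays of the haploids at 7% entered the marker check, the filter on dim genes and the shared estimate of spread. All 3 strains are labelled ethanol tolerant, and all grew in fermentors in rich medium of yeast extract, peptone and glucose until the middle of exponential growth. The labels give no further genotype, and do not say whether the diploid was made from these haploids. They also do not say whether the samples of a group came from separate cultures, so the p-values measure only the spread between these samples, which may be technical. A signal is a mean over a culture, in which fewer cells making a transcript and less of it per cell cannot be told apart.

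The label of the diploid was checked against genes that an a/alpha diploid turns off. MF(ALPHA)1, which encodes the alpha-factor pheromone, had scaled signals of 17 and 14.7 in the diploid at 3% and 13.5 and 16.7 in the diploid at 0%, against 3760 to 5120 on the 12 arrays of the haploids. All 10 haploid-specific markers lay below every haploid array, with summed signals of 267.2 and 253.8 in the diploid at 3% and 230.6 and 205.6 at 0%, against 2692 to 3856 in the haploids. HMRA1 encodes the regulator a1, which is on only where the a allele is present and so does not by itself mark a diploid. Its signal was above background on 4 of 4 of these diploid arrays and on 0 of 12 haploid arrays, those of the haploid labelled a included. The haploid labelled a had the pheromone transcript of an alpha cell, so its label is quoted as such. At these low levels STE4, a subunit of the pheromone G protein, read 51.8 and 58.2 in the diploid at 3% against 37.9 and 29.6 at 0%, a rise of 0.52 ± 0.102 (adjusted p = 0.00129 by limma). Of the 16 haploid-specific genes 4 rose and 0 fell, namely STE4, AXL1, STE5 and GPA1, where 12.4% of all genes tested rose and 7.96% fell. Under quantile normalization 1 of the 16 rose and 4 fell, and without scaling 0 rose. Each of the 4 arrays left out in turn brought the count to 2, and without the second 0% array 1 gene fell.

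Ethanol at low levels makes membranes leakier, unfolds proteins and slows growth, and yeast is known to answer stress of this kind with heat shock proteins, storage sugars and changes of its membrane lipids. In glucose, yeast takes up sugar through a family of hexose transporters with low or high affinity, represses respiration and devotes much of its transcription to ribosomes. Diploids of this species express both mating types, which shuts the pheromone pathway off and lets meiosis start when nutrients run out.

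On the 4 diploid arrays the 2% trimmed mean of the deposited intensities was 413.7 to 493.2, and each array was scaled to a common trimmed mean. Between 5243 and 5271 of the 5363 genes tested lay above background on each array. The SD between the arrays was 0.121 at 3% and 0.14 at 0% on the log2 scale, and the number of arrays limits the precision. The 3' probe set for 18S rRNA had scaled signals of 792.2 and 759.5 at 3% and 1265 and 1308 at 0%, which did not overlap. The 5' probe set had 1449 and 1981 at 3% and 1939 and 2042 at 0%, which overlapped. Replicates of the haploids at 3% differed several-fold in the 3' signal, with 1461 and 196.9 in the haploid labelled alpha and 148.1 and 1280 in the haploid labelled a. With the 3' signal as a covariate 710 genes were higher and 407 lower in the diploid. Below, a signal is the scaled intensity, and a change is the log2 difference of signal plus 16 with its SE. That sum makes changes of dim transcripts smaller than the ratio of their signals. The words rose and fell are used of genes with a limma adjusted p under 0.05 over the 5363 genes.

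At 3% ethanol 665 genes were higher and 427 lower than at 0%, which is 12.4% and 7.96% of the genes tested. The counts of each gene list below stand against these shares. In the mean of the haploids 27.8% of all genes rose and 15.5% fell. The 3% change was higher in the diploid than in that mean for 4.01% of all genes and lower for 4.96%. A list's counts in the haploids, and of its differences from them, stand against these latter shares. Most changes were small. The median size among the 1092 genes called was 0.446, and 36 genes rose and 17 fell by 2-fold or more. The median change of all genes was 0.04, and the medians of the 16 chromosomes lay between -0.00748 and 0.0675. Of the calls 60.9% were higher, which became 50.1% with quantile normalization (503 higher, 501 lower) and 52.1% with median centring (564 higher, 519 lower). Without the first 3% array 401 genes were higher and 294 lower, and without the second 354 and 196. Without the first 0% array the counts were 392 and 205, and without the second 503 and 369.

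**Figure D1:**
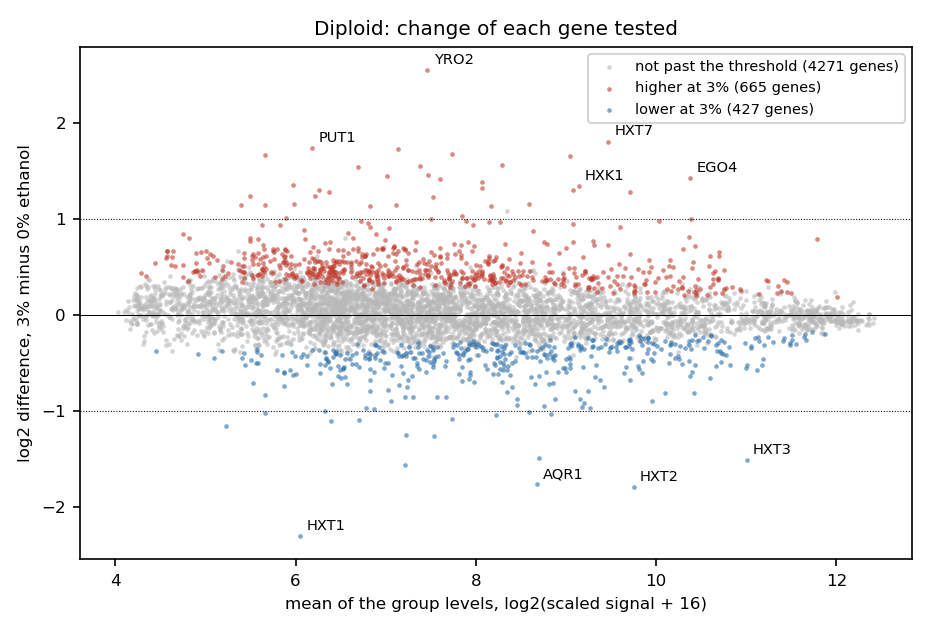
Each point is 1 of 5363 genes in the diploid, with the mean of its levels at 3% and 0% ethanol on the x axis, as log2 of scaled signal plus 16, and the log2 difference, 3% minus 0%, on the y axis. The 665 genes called higher are red, the 427 called lower are blue, and the dotted lines mark 2-fold; YRO2 and HXT1 lie farthest from 0.

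The largest rise was that of YRO2 (YBR054W), a plasma membrane protein. Its signal was 399 and 423 at 3% and 56 and 57.5 at 0%, a change of 2.55 ± 0.0887 or 5.87-fold (adjusted p = 7.35e-14). HXT7 (YDR342C), a high-affinity hexose transporter whose probe set also reads related genes, had 1399 and 1217 at 3% against 387 and 338 at 0% (1.81 ± 0.165). In both genes the 2 arrays of a group were close together and the groups lay far apart. PUT1 (YLR142W), the proline oxidase of mitochondria, had 111 and 124 at 3% and 21.4 and 26.2 at 0% (1.74 ± 0.142). CYB2 (YML054C), the enzyme that passes electrons from lactate to cytochrome c, had 297 and 245 at 3% against 79 and 82.9 at 0% (1.56 ± 0.133). SUE1 (YPR151C), which is needed to degrade unstable forms of cytochrome c, had 78.3 and 70.8 at 3% and 10.9 and 14 at 0% (1.67 ± 0.156). These 3 genes all act in or with mitochondria. None had overlapping groups, which follows largely from picking the largest rises on the same arrays.

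UBX6 (YJL048C), a protein with a UBX domain, had 933 and 914 at 3% and 292 and 274 at 0% (1.65 ± 0.0867). GPM2 (YDL021W), a relative of the glycolytic phosphoglycerate mutase, had 538 and 509 at 3% against 153 and 181 at 0% (1.56 ± 0.111). EGO4 (YNR034W-A) had 1899 and 2443 at 3% and 818 and 765 at 0% (1.43 ± 0.113). YIL014C-A, an open reading frame, had 333 and 402 at 3% against 97.7 and 109 at 0% (1.68 ± 0.127). ZIM17 (YNL310C), a zinc finger protein of mitochondria, rose by 1.42 ± 0.254 on arrays that were further apart, at 274 and 327 in 3% and 121 and 85.4 in 0%. COS8 (YHL048W), of a subtelomeric gene family, had 455 and 349 at 3% against 226 and 88.2 at 0% (1.39 ± 0.291), and without the second 0% array it was 0.78 with an adjusted p of 0.0579.

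Probe sets that read retrotransposon Ty genes made up 4 of the 15 largest rises, and each reads related copies. Their share among all genes tested is not given here. YAR010C had 259 and 222 at 3% against 65.9 and 56.5 at 0% (1.73 ± 0.123). YBL100W-A had 288 and 268 at 3% and 88.2 and 93.9 at 0% (1.46 ± 0.0877), and YDR261C-D rose by 1.45 ± 0.287. YAR009C was less certain, with 91.6 and 238 at 3% and 60.5 and 25.8 at 0%, a change of 1.55 ± 0.535 (adjusted p = 0.0465). YAR009C had an adjusted p of 0.387 without the second 3% array, where the change was 0.93, 0.055 without the first 0% array and 0.267 without the second. Because the probe sets read related copies, they are not separate measurements. All 4 also rose in the mean of the haploids, YAR010C by 1.14 ± 0.0872, YBL100W-A by 1.38 ± 0.062, YDR261C-D by 1.13 ± 0.203 and YAR009C by 1.88 ± 0.379. Of the 4 only YAR010C differed from the haploids past the threshold, by 0.59 ± 0.151.

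**Figure D2:**
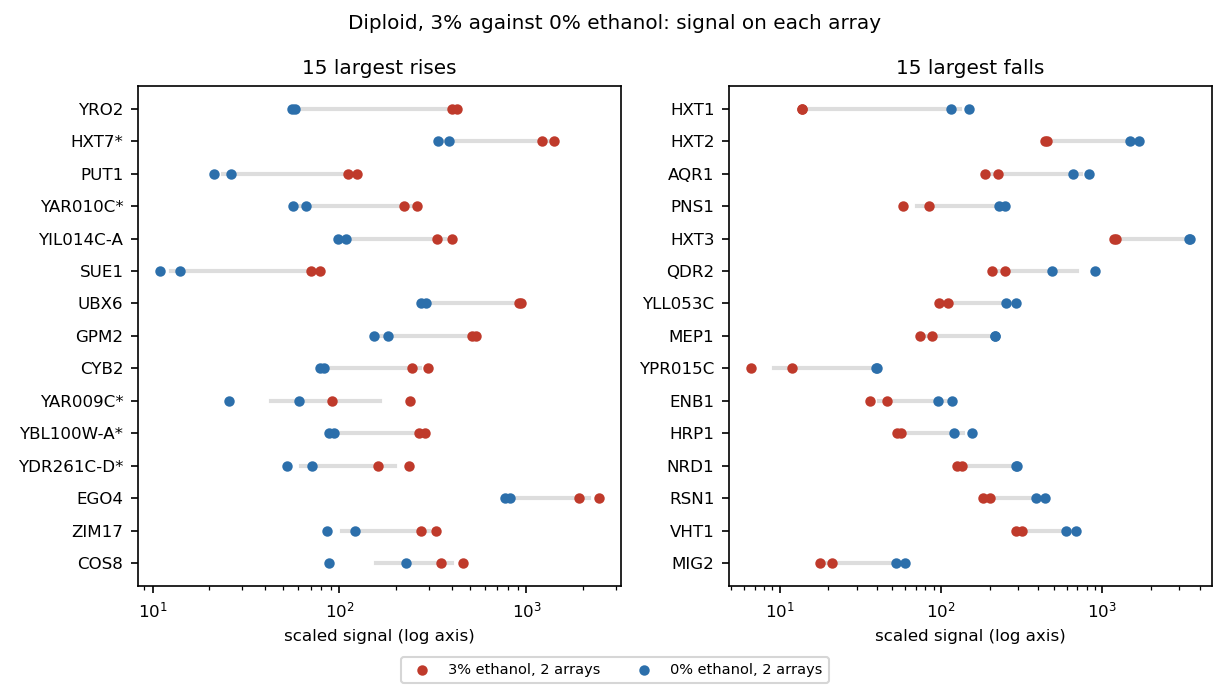
Scaled signal on a log axis for the 15 largest rises (left) and the 15 largest falls (right) past the threshold in the diploid, with 1 point for each of the 2 arrays at 3% (red) and the 2 at 0% (blue) and a grey line between the group means. An asterisk marks a probe set that also reads related genes. In no row do the red and blue points overlap, which follows largely from picking the genes by their change on these arrays.

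Among the largest falls were several proteins of the plasma membrane that carry solutes. HXT1 (YHR094C), a low-affinity hexose transporter, fell most, with 13.7 and 13.9 at 3% against 148 and 116 at 0%, a change of -2.30 ± 0.174 or 4.94-fold lower (adjusted p = 1.23e-08). HXT2 (YMR011W) had 439 and 453 at 3% and 1696 and 1492 at 0% (-1.80 ± 0.112), and HXT3 (YDR345C), the other low-affinity carrier, had 1219 and 1177 at 3% against 3493 and 3428 at 0% (-1.52 ± 0.0615). AQR1 (YNL065W), a multidrug transporter that also exports amino acids, had 225 and 187 at 3% and 823 and 660 at 0% (-1.77 ± 0.152). In each of these 4 genes the arrays at 3% lay below both arrays at 0% by more than 2-fold. The 4 were picked by their fall on the same arrays, so this adds no support.

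PNS1 (YOR161C), a membrane protein related to choline transporters, had 57.8 and 84.2 at 3% against 248 and 229 at 0% (-1.56 ± 0.126). QDR2 (YIL121W), another multidrug transporter, had 207 and 248 at 3% and 906 and 488 at 0% (-1.49 ± 0.194). MEP1 (YGR121C), an ammonium permease, had 88.3 and 74 at 3% against 215 and 216 at 0% (-1.26 ± 0.15). The siderophore transporter ENB1 (YOL158C) fell by 1.10 ± 0.17, the biotin transporter VHT1 (YGR065C) by 1.04 ± 0.127 and the membrane protein RSN1 (YMR266W) by 1.05 ± 0.107. HRP1 (YOL123W) and NRD1 (YNL251C) bind RNA and act in the ends of transcripts. HRP1 had 56.8 and 53.6 at 3% and 155 and 120 at 0% (-1.10 ± 0.118), and NRD1 had 125 and 135 at 3% and 293 and 295 at 0% (-1.09 ± 0.101). YLL053C, an open reading frame, fell by 1.26 ± 0.159. YPR015C was dim, with 6.65 and 11.9 at 3% against 39.8 and 40.2 at 0%, and its change of -1.16 ± 0.126 was -2.05 when 1 was added in place of 16.

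Of 18 hexose transporters and sensors, 1 rose and 5 fell. Besides HXT1, HXT2, HXT3 and HXT7, given above, the falls were MIG2 (YGL209W), a repressor that acts in glucose, and RGT2, the sensor of high glucose. MIG2 had 21.2 and 17.9 at 3% against 52.6 and 59.5 at 0% (-1.02 ± 0.126), and RGT2 had 21.7 and 17.7 at 3% against 52.7 and 33.7 at 0% (-0.71 ± 0.172). HXT4 did not pass the threshold, with 3217 and 3010 at 3% and 3056 and 3015 at 0%. SNF3, the sensor of low glucose, had 101 and 115 at 3% and 147 and 135 at 0% (adjusted p = 0.0509). On leaving out the second 3% array, 2 genes of the list rose and 4 fell.

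Of 18 glycolysis genes 3 rose and 0 fell. HXK1, a hexokinase that is repressed in high glucose, had 895 and 873 at 3% against 328 and 349 at 0% (1.34 ± 0.0681, adjusted p = 3.28e-11). TDH1, 1 of the glyceraldehyde phosphate dehydrogenases, rose by 0.79 ± 0.0819, and the other rise was that of GPM2, given above. Among 18 genes of pyruvate, acetaldehyde and ethanol metabolism 3 rose and 2 fell. BDH1, the butanediol dehydrogenase, had 1218 and 1209 at 3% against 2048 and 1801 at 0% (-0.66 ± 0.0807), and ALD4, a mitochondrial aldehyde dehydrogenase, fell by 0.49 ± 0.0678. The alcohol dehydrogenase ADH4 rose by 0.45 ± 0.0733, the pyruvate decarboxylase PDC5 by 0.56 ± 0.1 and the aldehyde dehydrogenase ALD2 by 0.54 ± 0.117. ADH1, the main fermentative alcohol dehydrogenase, had 3525 and 3510 at 3% and 3543 and 3698 at 0%, with an adjusted p of 0.762. In the ethanol list 4 genes rose without the first 3% array, and 2 without the second 0% array or without scaling.

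Of 24 drug and organic acid transporters and their regulators 2 rose and 13 fell, AQR1 and QDR2 among the falls, and the median change was -0.405 against 0.04 over all genes. PDR5 had 413 and 432 at 3% against 871 and 817 at 0% (-0.97 ± 0.0933), and PDR12, which exports weak acids, had 330 and 332 at 3% against 676 and 568 at 0% (-0.88 ± 0.107). TPO4, a polyamine exporter, had 500 and 522 at 3% against 911 and 834 at 0% (-0.75 ± 0.093). The rises were PDR16, a phosphatidylinositol transfer protein, with 591 and 528 at 3% against 209 and 277 at 0% (1.16 ± 0.11), and the exporter QDR1 (0.64 ± 0.145). Leaving out 1 array in turn left 10 to 13 falls, and without the first 3% array or the first 0% array 1 gene rose.

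Of 74 genes for the mitochondrial ribosome 30 rose and 0 fell, where 12.4% of all genes tested rose and 7.96% fell, and their median change was 0.31. MRPL15 had 166 and 165 at 3% against 100 and 113 at 0% (0.57 ± 0.0989), and MRPL51 had 187 and 200 at 3% against 123 and 124 at 0% (0.59 ± 0.121). MRPL19 rose by 0.43 ± 0.0881, MRP13 by 0.50 ± 0.109 and RSM28 by 0.49 ± 0.108. In these 5 genes no array at 3% was below an array at 0%. The 5 were picked by adjusted p on the same arrays, so this adds no support. The rises numbered 19 without the first 3% array, without the second 15 and without the first 0% array 12. Without scaling between arrays 5 of the 74 rose, where 261 of all 5363 genes did. In the mean of the haploids 19 of the 74 rose and 1 fell, where 27.8% of all genes rose and 15.5% fell, and the haploids differed, with 0 rises and 3 falls in the haploid labelled alpha and 39 rises and 0 falls in the haploid labelled a. The change differed between the diploid and the haploids in 1 gene, which was higher in the diploid, where 4.01% of all genes were higher and 4.96% lower. That count was 4 without the second 0% array, 0 without the second 3% array or scaling, 2 with quantile normalization and 8 with median centring.

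Of 35 genes of the respiratory chain and ATP synthase 14 rose and 1 fell, where 12.4% of all genes tested rose and 7.96% fell. Their median change was 0.18. CYC1, the main cytochrome c, had 782 and 813 at 3% against 377 and 563 at 0% (0.77 ± 0.145, adjusted p = 0.000904). Rises of cytochrome bc1 subunits on the list included 0.41 ± 0.0786 for COR1, 0.47 ± 0.092 for CYT1 and 0.38 ± 0.0809 for QCR8. ATP16, of the ATP synthase, rose by 0.40 ± 0.0798. The fall was NDE1, an external NADH dehydrogenase, with 61.6 and 60.5 at 3% against 100 and 92.5 at 0% (-0.54 ± 0.12). In the mean of the haploids 1 of the 35 rose and 12 fell, where 27.8% of all genes rose and 15.5% fell. The change was higher in the diploid for 13 and lower for 0, where 4.01% of all genes were higher and 4.96% lower. Leaving out the first 3% array gave 11 rises and 9 differences, without the second 7 and 8, and without the first 0% array 5 and 6. Without scaling 4 rose, where 261 of all 5363 genes did, and 3 differed.

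The citric acid cycle was divided. Of 16 genes 4 rose and 3 fell. ACO1, the aconitase, had 2002 and 1948 at 3% against 2708 and 2717 at 0% (-0.46 ± 0.0671), and the subunits of isocitrate dehydrogenase fell too, IDH2 by 0.29 ± 0.0682 and IDH1 by 0.28 ± 0.0854. The rises were LSC2 of succinyl-CoA ligase (0.38 ± 0.085), KGD2 of ketoglutarate dehydrogenase (0.25 ± 0.0775) and the malate dehydrogenase MDH1 (0.29 ± 0.0753). The citrate synthase CIT1 rose too, with 1060 and 977 at 3% against 855 and 862 at 0% (0.24 ± 0.072). In the mean of the haploids 0 rose and 10 fell, where 27.8% of all genes rose and 15.5% fell. The change was higher in the diploid for 5 and lower for 0, where 4.01% of all genes were higher and 4.96% lower. The rises numbered 1 without the first 3% array or the first 0% array, 2 without the second 0% array, and 0 without scaling. The falls numbered 1 without the second 3% array or scaling, and 3 genes differed without the second 3% array or the first 0% array and 1 without scaling.

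**Figure D3:**
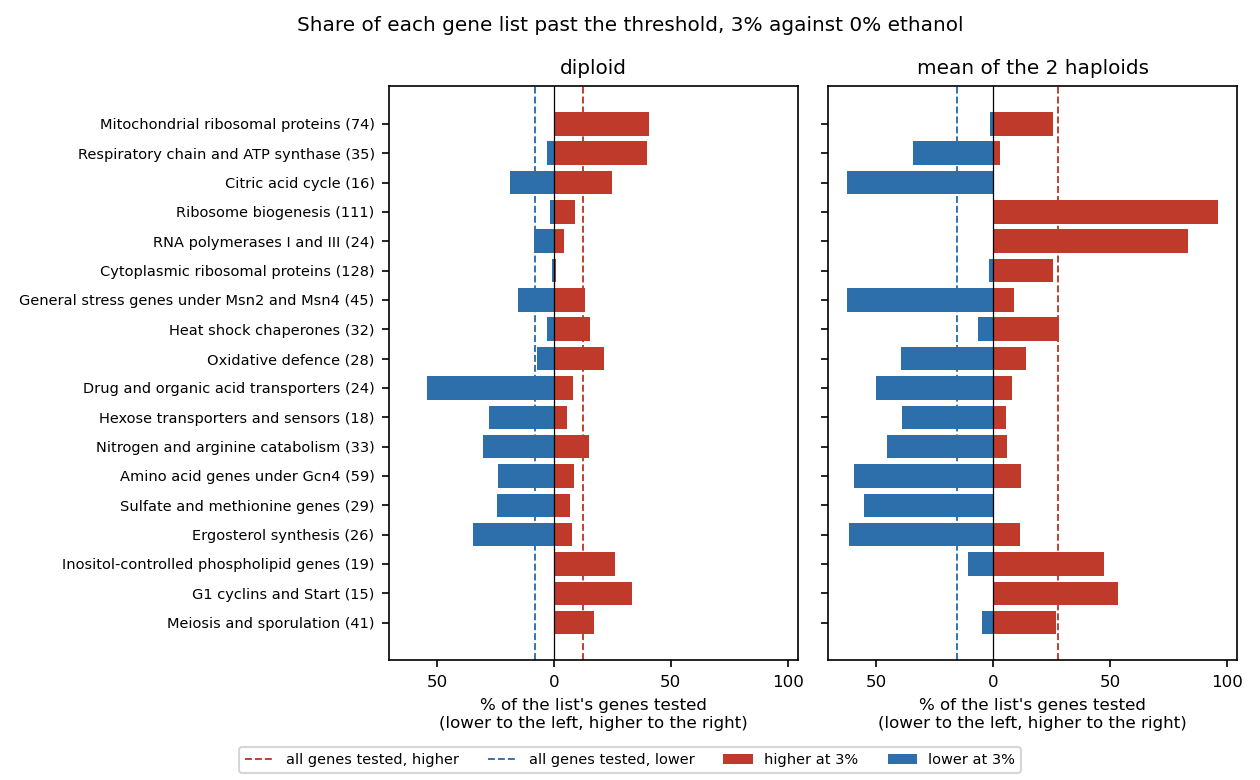
Bars give the percent of each list's genes tested that were higher (red, to the right) or lower (blue, to the left) at 3% than at 0% ethanol, in the diploid (left panel) and in the mean of the haploids (right panel), with the number of genes tested in brackets. Dashed lines mark the share of all genes tested, which was 12.4% higher and 7.96% lower in the diploid and 27.8% and 15.5% in the haploids; for ribosome biogenesis 10 of 111 genes rose in the diploid and 107 of 111 in the haploids.

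Few genes for assembling ribosomes were called in the diploid, and most rose in the haploids. Of 111 ribosome biogenesis genes 10 rose and 2 fell in the diploid, a share of rises below that of all genes, and the median change was 0.10. In the mean of the haploids 107 rose and 0 fell, where 27.8% of all genes rose and 15.5% fell, and the median was 0.66. The difference of the changes was itself past the threshold in 63 of the 111, all lower in the diploid. Of all genes 4.01% were higher and 4.96% lower. The 63 became 39 without the second 3% array and without the first 0% array 38. NSR1, a nucleolar protein that binds pre-rRNA, had 238 and 288 at 3% against 315 and 268 at 0% in the diploid, which overlapped. In the haploid labelled alpha NSR1 had 857 and 882 at 3% against 417 and 374 at 0%, and in the haploid labelled a 495 and 510 at 3% against 332 and 355 at 0%. The difference for NSR1 was -0.96 ± 0.12 (adjusted p = 2.66e-05).

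The 12 ribosome biogenesis genes called in the diploid went both ways. DBP3, an RNA helicase, had 229 and 234 at 3% and 146 and 126 at 0% (0.70 ± 0.115), BMS1, a GTPase of the small subunit, rose by 0.55 ± 0.15 and NHP2, of the box H/ACA particles, by 0.27 ± 0.0797. The helicases HAS1 and DBP2 fell. HAS1 had 107 and 80.3 at 3% against 144 and 132 at 0% (-0.50 ± 0.126), and DBP2 fell by 0.40 ± 0.102. Leaving out the first 3% array gave 4 rises and 2 falls, without the second 2 and 0, and without the first 0% array 4 and 0. Quantile normalization gave 3 rises and no scaling 2. Of 24 genes of RNA polymerases I and III 1 rose, the subunit RPC37 (0.36 ± 0.114), and 2 fell, the polymerase I factor RRN3 (-0.74 ± 0.126) and the subunit RPO31 (-0.30 ± 0.0979). In the haploids 20 of these 24 rose and 0 fell, where 27.8% of all genes rose and 15.5% fell. The change differed in 12, all lower in the diploid, where 4.01% of all genes were higher and 4.96% lower. Without scaling 4 of the 24 differed, without the first 3% array 8. Of 128 cytoplasmic ribosomal protein genes 1 rose and 1 fell, RPL31B (0.22 ± 0.073) and RPS14B (-0.22 ± 0.0751). Without either 3% array neither was called, without the first 0% array 2 rose, and 126 of the 128 did not pass the threshold.

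General stress genes under Msn2 and Msn4, the activators of the environmental stress response, moved in both directions. Of 45 genes 6 rose, a share near the 12.4% of all genes tested, and 7 fell, where 7.96% of all genes did. The median change was 0.00485, and -0.06 to 0.04 over the alternatives. HXK1 is on this list too. HSP26, a small heat shock protein, had 113 and 113 at 3% against 38.4 and 35.5 at 0% (1.28 ± 0.102). SPI1, a cell wall protein, had 331 and 371 at 3% against 214 and 238 at 0% (0.60 ± 0.0953), and HSP31 rose by 0.46 ± 0.0655. HSP12, a small membrane-associated protein widely used as a marker of this response, fell, with 52.4 and 57.7 at 3% against 87.9 and 102 at 0% (-0.64 ± 0.13). Without the first 0% array or scaling 4 of the 45 fell, and with median centring 10. In the mean of the haploids 4 rose and 28 fell, where 27.8% of all genes rose and 15.5% fell, and the median was -0.43. The change was higher in the diploid for 21 of the 45 and lower for 0, where 4.01% of all genes were higher and 4.96% lower. The 21 became 17 to 19 when 1 array was left out and 13 without scaling.

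CTT1, the cytosolic catalase, was among the genes that differed. In the diploid CTT1 had 368 and 273 at 3% against 256 and 234 at 0% (adjusted p = 0.266), and in the haploid labelled alpha 23.6 and 27.7 at 3% against 51.6 and 77.7 at 0%. In the haploid labelled a CTT1 had 240 and 245 at 3% against 325 and 616 at 0%. The change was higher in the diploid by 1.25 ± 0.262 (adjusted p = 0.00404). The trehalose synthesis genes TPS1, TPS2 and TSL1 fell in the diploid, by 0.28 ± 0.074, 0.39 ± 0.0764 and 0.34 ± 0.0813, as 3 of 7 genes of that list. All 3 fell less in the diploid than in the haploids. TSL1 had 1553 and 1606 at 3% against 2044 and 1955 at 0% in the diploid, with a difference of 0.74 ± 0.0996. Without the first 0% array 1 of these 7 genes fell and without scaling 0. Of 14 glycogen genes PCL10 rose, GSY1 and GPH1 fell, and 4 differed, all higher in the diploid. Only 2 glycogen genes differed without the first 3% array or without scaling.

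Of 32 heat shock chaperones 5 rose and 1 fell. Besides HSP26, SSE2 had 316 and 280 at 3% against 223 and 206 at 0% (0.44 ± 0.108), HCH1, an activator of Hsp90, rose by 0.29 ± 0.0822 and MDJ1, a mitochondrial co-chaperone, by 0.38 ± 0.124. STI1, an Hsp90 co-chaperone, fell, with 488 and 446 at 3% against 691 and 682 at 0% (-0.54 ± 0.0866). The disaggregase HSP104 had 1034 and 975 at 3% and 926 and 840 at 0% (adjusted p = 0.204), and HSP82, encoding Hsp90, had an adjusted p of 0.259. Without the first 3% array 1 chaperone rose and 2 fell, and without the first 0% array 2 rose. Leaving out the second array of either group gave 3 rises, and no scaling gave 1. Of 20 genes of folding in the endoplasmic reticulum 2 rose, MPD1 (0.55 ± 0.092) and DER1 (0.37 ± 0.108), and 0 fell, and without either 3% array or scaling 1 rose.

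Of 28 oxidative defence genes 6 rose and 2 fell. PRX1, the mitochondrial peroxiredoxin, had 730 and 738 at 3% against 337 and 413 at 0% (0.95 ± 0.106), and SOD2, the mitochondrial superoxide dismutase, had 1376 and 1353 at 3% against 818 and 1022 at 0% (0.57 ± 0.0986). The glutaredoxin GRX1 rose by 0.51 ± 0.0754 and the old yellow enzyme OYE3 by 0.61 ± 0.124. YAP1, the activator of this response, had 182 and 171 at 3% against 309 and 274 at 0% (-0.67 ± 0.117), and GTT1, a glutathione transferase, fell by 0.35 ± 0.0932. In the haploids 4 rose and 11 fell, where 27.8% of all genes rose and 15.5% fell. The change was higher in the diploid for 8, among them PRX1, SOD2 and GRX1, and lower for 0. Of all genes 4.01% were higher and 4.96% lower. The 8 became 5 without the second 3% array or without scaling.

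Genes for uptake and breakdown of nitrogen sources were called in both directions. Of 33 nitrogen and arginine catabolism genes 5 rose, a share near the 12.4% of all genes tested. The falls numbered 10, where 7.96% of all genes fell. The rises were on the routes that take up and degrade proline and GABA. PUT2, the step after PUT1, had 395 and 297 at 3% against 264 and 254 at 0% (0.38 ± 0.113), and UGA2, of GABA breakdown, had 251 and 259 at 3% against 165 and 151 at 0% (0.64 ± 0.0956). UGA1, the GABA transaminase, rose by 0.28 ± 0.0807. The falls included permeases and arginine degradation. DIP5, a dicarboxylic amino acid permease, had 427 and 398 at 3% against 831 and 762 at 0% (-0.92 ± 0.0984), and CAR1, the arginase, had 840 and 786 at 3% against 1392 and 1490 at 0% (-0.81 ± 0.0999). The rises numbered 3 without the first 3% array, the first 0% array or scaling, and the falls 7 to 10 when 1 array was left out.

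Of 59 amino acid genes under Gcn4, the activator of amino acid synthesis, 5 rose and 14 fell. The median change was -0.07. Among the genes called on this list, the largest changes were the rises of ARG3 and SER3. ARG3, ornithine carbamoyltransferase, had 1479 and 1426 at 3% against 699 and 761 at 0% (0.98 ± 0.0797), and SER3, of serine synthesis, had 1776 and 1723 at 3% against 1046 and 1074 at 0% (0.71 ± 0.106). ARG8 rose by 0.38 ± 0.0807, CPA1 by 0.23 ± 0.0763 and LYS21 by 0.40 ± 0.0974. The 3 genes ARG3, ARG8 and CPA1 act in arginine synthesis. TRP4 fell by 0.46 ± 0.0974 and LYS1 by 0.40 ± 0.0847. GCN4 itself had an adjusted p of 0.731. In the haploids 7 rose and 35 fell. The falls numbered 9 without the first 3% array, without the second 6, without the first 0% array 8 and without scaling 1. The rises numbered 3 without the first array of either group and 2 without scaling.

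Of 29 sulfate and methionine genes 2 rose and 7 fell. MUP1, the high-affinity methionine permease, had 732 and 689 at 3% against 1390 and 1280 at 0% (-0.89 ± 0.0802), and MUP3 fell by 0.85 ± 0.135. MET2, of homocysteine synthesis, had 84.5 and 79.5 at 3% against 157 and 177 at 0% (-0.90 ± 0.137), and SUL2, a sulfate permease, fell by 0.53 ± 0.106. The rises were MET16 (0.32 ± 0.106) and MET3 (0.31 ± 0.109), enzymes of sulfate activation and reduction, and neither was called when either 3% array was left out, with median centring or without scaling. Without either 3% array 4 genes fell, as without scaling. Of 6 biotin genes 4 fell and 0 rose. Besides VHT1, BIO5 had 60.3 and 55.4 at 3% against 113 and 99 at 0% (-0.72 ± 0.128), and the biotin ligase BPL1 and the biotin synthase BIO2 fell by 0.32 ± 0.109 and 0.30 ± 0.102. Of these 6 genes 2 fell without the second 3% array, the first 0% array or scaling. Of 19 vitamin B6 and thiamine genes 2 rose and 3 fell, and the median change was 0.07. SNO1, of vitamin B6 synthesis, had 749 and 707 at 3% against 1103 and 1133 at 0% (-0.61 ± 0.101). PET18 fell by 0.56 ± 0.122 and the acid phosphatase PHO3 by 0.44 ± 0.103, while THI80, the thiamine pyrophosphokinase, rose by 0.42 ± 0.135 and PDC5 is given above. Leaving out 1 array in turn gave 1 to 3 rises and 2 to 3 falls of these 19.

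In sterol synthesis, of 26 genes 2 rose and 9 fell. The median change was -0.13. ERG24 had 1098 and 995 at 3% against 1767 and 1505 at 0% (-0.63 ± 0.0813), and ERG4, the last step, had 1727 and 1882 at 3% against 2801 and 2593 at 0% (-0.58 ± 0.0772). HMG1, the rate-limiting reductase, had 532 and 510 at 3% against 759 and 757 at 0% (-0.53 ± 0.112), and ECM22, a sterol regulator, fell by 0.53 ± 0.0992. The rises were upstream of sterols, ERG20 (0.27 ± 0.0688) and IDI1 (0.29 ± 0.0779). ERG11 had 3235 and 3292 at 3% and 3471 and 3412 at 0% (adjusted p = 0.473). In the haploids 3 rose and 16 fell. The falls numbered 6 without the second array of either group and 5 without scaling, and the rises 1 without either 3% array and 0 without the first 0% array or scaling.

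Of 19 phospholipid genes under inositol control 5 rose and 0 fell. OPI3, which methylates phosphatidylethanolamine to phosphatidylcholine, had 1797 and 1834 at 3% against 1253 and 1294 at 0% (0.51 ± 0.0761). INO2, an activator of the group, had 57 and 63.9 at 3% against 37.6 and 30.5 at 0% (0.61 ± 0.118), and the inositol transporter ITR1 rose by 0.22 ± 0.0665. INO1, the most inositol-sensitive gene, read 19.4 and 13.5 at 3% and 25.4 and 9.93 at 0%, which overlapped. Without either 3% array, the second 0% array or scaling 3 rose. Of 15 fatty acid genes FAA1, an acyl-CoA synthetase, was the only gene to rise in the main comparison, with 157 and 147 at 3% against 62.9 and 57.6 at 0% (1.14 ± 0.127). OLE1, the desaturase, had an adjusted p of 0.928. With quantile normalization 2 of the 15 rose. The change of FAA1 was higher in the diploid than in the haploids by 0.69 ± 0.155.

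Of 15 G1 cyclins and Start genes, of the start of the cell cycle, 5 rose and 0 fell. Of all genes tested 12.4% rose and 7.96% fell. In the mean of the haploids 8 of the 15 rose and 0 fell, where 27.8% of all genes rose and 15.5% fell. The median change was 0.31. CLN2, a G1 cyclin, had 196 and 194 at 3% against 100 and 117 at 0% (0.76 ± 0.115), and the S phase cyclins CLB6 and CLB5 rose by 0.60 ± 0.125 and 0.45 ± 0.123. CLN3 had 512 and 559 at 3% and 532 and 622 at 0%, with an adjusted p of 0.592. Leaving out the first array of either group gave 3 rises, and 2 rose without the second 3% array, with quantile normalization or without scaling. With quantile normalization 503 of all 5363 genes rose. Among 22 DNA replication genes 3 rose and 2 fell. CDC21, the thymidylate synthase, had 329 and 304 at 3% against 149 and 156 at 0% (0.98 ± 0.104), and POL30, the sliding clamp, rose by 0.49 ± 0.0744. SML1, an inhibitor of ribonucleotide reductase, fell by 0.53 ± 0.0987, and the replicative helicase subunit MCM2 fell by 0.48 ± 0.155. Of the 22 genes 1 fell without the second 3% array or scaling. Of 9 histone genes 3 rose and 0 fell, among them HTB2 (0.30 ± 0.0701), and without scaling 0 rose.

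Of 41 meiosis and sporulation genes 7 rose and 0 fell, at low levels, where 12.4% of all genes tested rose and 7.96% fell. SPS4 had 88.9 and 81 at 3% against 24.1 and 22.5 at 0% (1.36 ± 0.124), and REC104, of recombination, had 25.5 and 26.6 at 3% against 13.2 and 9.74 at 0% (0.62 ± 0.131). SPO16 rose by 0.45 ± 0.114 and MSH5 by 0.47 ± 0.128. IME1, the activator that starts meiosis, had 30.3 and 28.7 at 3% and 23.2 and 21.5 at 0% (adjusted p = 0.205), and NDT80, the activator of the later stages, read 7.66 and 11.2 at 3% and 9.66 and 6.69 at 0%. No difference from the haploids passed the threshold. The mean of the haploids had 11 rises and 2 falls, where 27.8% of all genes rose and 15.5% fell. The rises numbered 3 without the second array of either group or without scaling. Of 14 daughter separation genes 2 rose and 3 fell. NCA3 had 81.1 and 76 at 3% against 29 and 23.8 at 0% (1.16 ± 0.103), while the septum proteins SUN4 and CTS1 fell by 0.79 ± 0.108 and 0.37 ± 0.0809, and without the first 3% array, the second 0% array or scaling 1 of the 14 rose.

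Of 34 cell wall genes 5 rose and 5 fell. The falls included the wall protein CWP1, with 237 and 225 at 3% against 391 and 442 at 0% (-0.81 ± 0.0867), the glycosidase UTR2 (-0.59 ± 0.0785), the chitin synthases CHS1 (-0.43 ± 0.0959) and CHS2 (-0.75 ± 0.167), and the integrity kinase SLT2 (-0.32 ± 0.0992). SCW10 rose by 0.50 ± 0.0814. The rises numbered 2 without the second 3% array, with median centring or without scaling and 3 without any other single array, and the falls 3 without the second 3% array or scaling and 2 without the first 0% array. Of 28 anaerobic and hypoxic genes 7 rose and 5 fell. ROX1, the hypoxic repressor, had 1604 and 1664 at 3% against 1124 and 1091 at 0% (0.55 ± 0.0822), DAN1, a mannoprotein, rose by 0.49 ± 0.0719, and HEM1 and HAP1 fell by 0.32 ± 0.0821 and 0.40 ± 0.105. The falls numbered 1 without the second 3% array and 2 without the first 0% array or scaling.

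Of 24 iron uptake genes 3 rose and 6 fell. HMX1, the heme oxygenase, had 52 and 40.8 at 3% against 10.3 and 14 at 0% (1.15 ± 0.143), and TIS11 rose by 0.65 ± 0.118. FTR1, the iron permease, had 61.8 and 53.6 at 3% against 85 and 102 at 0% (-0.57 ± 0.145). Without the first 3% array 3 of the 24 fell, and 2 without the second 3% array, the first 0% array or scaling. Of 24 phosphate starvation genes 7 rose and 3 fell. PHO84, the high-affinity phosphate transporter, had 1927 and 1819 at 3% against 1075 and 801 at 0%, a change of 1.001 ± 0.108, and VTC3, of polyphosphate synthesis, rose by 0.64 ± 0.0854. PHO90, a low-affinity transporter, fell by 0.56 ± 0.0991. The haploids had 10 rises and 4 falls, and 5 genes differed, all lower in the diploid, PHO84 by 0.78 ± 0.132 and VTC3 by 0.39 ± 0.105. Leaving out the first array of either group gave 4 rises among the 24, and no scaling gave 2. Without the first 3% array or scaling 2 genes differed, and 3 without the second array of either group. Without the first 0% array 1 of the 24 fell.

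In the remaining lists 5 genes or fewer were called in each. Of 35 proteasome genes 2 rose and 1 fell, and of 18 vacuolar ATPase genes 1 rose. Of 19 purine genes 0 rose and 3 fell, among them AAH1, the adenine deaminase. Of 12 plasma membrane stress and pH proteins 2 rose, YRO2 and HSP30, and 3 fell, PMA2, TRK2 and PMP3, while PMA1, the main proton pump, had an adjusted p of 0.306. YRO2 alone of these was called without the first array of either group. Of 24 glucose-repressed genes 2 rose and 1 fell, the last being ATO3, an ammonium exporter, with 255 and 256 at 3% against 565 and 500 at 0% (-1.01 ± 0.0998). Of 10 glycerol genes 2 rose and 2 fell. GPD2, a glycerol phosphate dehydrogenase, had 29.9 and 33.1 at 3% against 56.2 and 56.5 at 0% (-0.61 ± 0.188), and the phosphatase GPP2 rose by 0.32 ± 0.0854. CIT2, the peroxisomal citrate synthase and the usual marker of retrograde signalling, had 212 and 206 at 3% against 144 and 151 at 0% (0.46 ± 0.111), and was 1 of 2 rises among 12 genes. Of 4 flocculation genes 2 fell, the flocculin FLO11 (-0.50 ± 0.151) and the activator FLO8 (-0.45 ± 0.116). The glycerol and flocculation counts were smaller without any single array and without scaling. Glycerol genes had 0 rises without the first array of either group or without scaling. Without the second 3% array 0 genes of the flocculation list fell, and 1 without any other single array. The proteasome count was 0 rises without either 3% array or the first 0% array, and the purine count was 1 fall without the second 3% array, the first 0% array or scaling.

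The 3% change of the diploid was then set against that of the haploids, which share no array with it. The change was higher in the diploid for 215 genes and lower for 266, and 181 of the 1092 genes called in the diploid were among those that differed. In the mean of the haploids 1489 genes rose and 831 fell. Of the diploid's rises 405 also rose in the haploids, 17 fell there and 243 were not called. Of its falls 285 fell in the haploids, 11 rose and 131 were not called. The haploid mean rests on 8 arrays and the diploid on 4, so the SE of the haploid mean is smaller and the counts are not on equal terms. On 4 arrays each, 674 genes rose and 675 fell in the haploid labelled alpha, and 1689 rose and 645 fell in the haploid labelled a. In the diploid 665 rose and 427 fell. The cause of the unlike counts was not tested. Without the first 3% array of the diploid 123 genes were higher and 181 lower, without the second 144 and 147, and without the first 0% array 149 and 150. Without scaling the counts were 88 and 116.

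RGI1 (YER067W), a protein of respiratory growth, differed most upward. In the diploid RGI1 had 1560 and 1608 at 3% against 928 and 1027 at 0%. In the haploid labelled alpha it had 255 and 259 at 3% against 679 and 701 at 0%, and in the haploid labelled a 952 and 839 at 3% against 1953 and 1885 at 0%. RGI1 thus rose by 0.69 ± 0.0805 in the diploid and fell in the haploids, with a difference of 1.92 ± 0.0986 (adjusted p = 1.28e-10). CYB2 differed by 1.70 ± 0.163, with 11.5 and 16.9 at 3% against 18.7 and 26.3 at 0% in the haploid labelled alpha and 90.9 and 82.9 at 3% against 75.7 and 90.1 at 0% in the haploid labelled a. EGO4 differed by 1.53 ± 0.139 and SUE1 by 1.61 ± 0.192, and the SUE1 difference was 2.89 when 1 was added in place of 16. SOL4 (1.30 ± 0.159), of the pentose phosphate pathway, and TSA2 (1.30 ± 0.167), a peroxiredoxin, had no call in the diploid and fell in the haploids. TSA2 had 151 and 153 at 3% against 147 and 200 at 0% in the diploid, against 44.5 and 38.4 at 3% and 140 and 151 at 0% in the haploid labelled alpha. ZIM17 (1.28 ± 0.311) lost this call without the second 3% array, with an adjusted p of 0.075, and without the second 0% array, with 0.0722.

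HXT1 differed most downward, by -1.45 ± 0.213. It had 12.9 and 18.9 at 3% against 67.4 and 70.3 at 0% in the haploid labelled alpha, and 14.8 and 20.5 at 3% against 34.3 and 17.7 at 0% in the haploid labelled a, which overlapped. ZRT1, the high-affinity zinc transporter, differed by -1.43 ± 0.157. It had 133 and 114 at 3% against 141 and 128 at 0% in the diploid, while in the haploid labelled a ZRT1 had 1228 and 1169 at 3% against 182 and 253 at 0%. The haploid labelled alpha had 145 and 125 at 3% against 115 and 106 at 0%, so that ZRT1 rose in the haploid labelled a (adjusted p = 6.71e-11) and was not called in the other (adjusted p = 0.165). URA7, a CTP synthase, had 101 and 90.3 at 3% against 124 and 114 at 0% in the diploid. In the haploid labelled alpha URA7 had 398 and 426 at 3% against 208 and 216 at 0%, and the difference was -1.20 ± 0.122. AAH1 fell in the diploid, with 53.8 and 47.7 at 3% against 74.1 and 86.4 at 0%, and rose in the haploids (difference -1.13 ± 0.14). The ribosome assembly factors MAK21 (-1.15 ± 0.186), RIX1 (-1.10 ± 0.266) and KRI1 (-1.09 ± 0.23) and the agglutinin SAG1 (-1.09 ± 0.113) completed the 8 largest. SAG1 is repressed in diploids, with 88.7 and 77.9 at 3% and 97.1 and 91.1 at 0% against 721 to 2770 in the haploids at all ethanol levels. RIX1 and KRI1 lost the call without the second 3% array, with adjusted p of 0.07 and 0.0519.

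**Figure D4:**
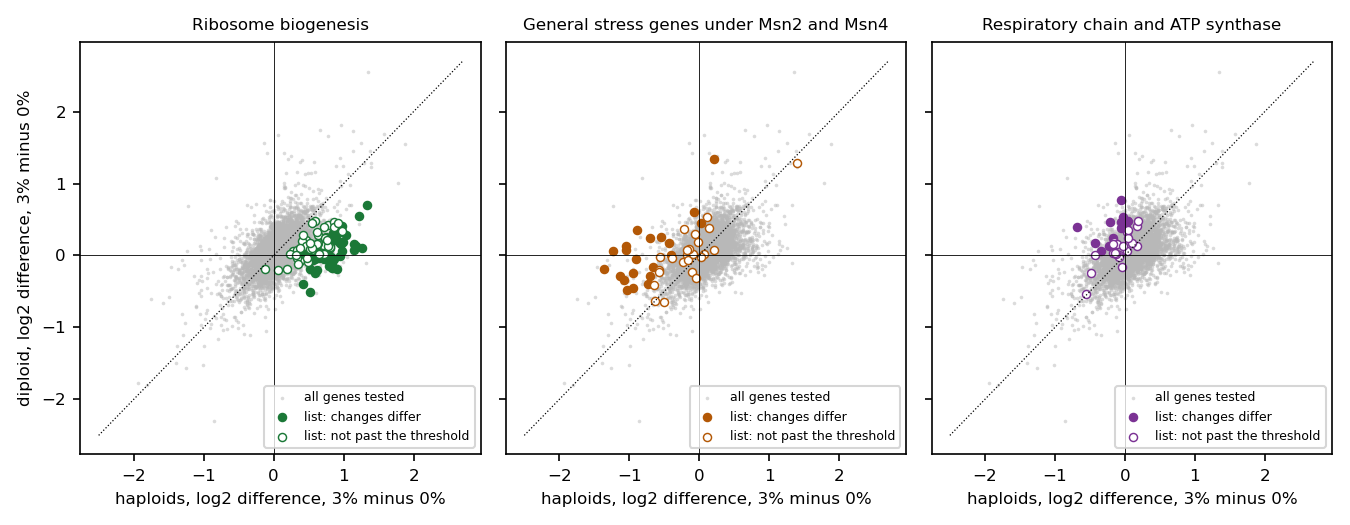
Log2 difference, 3% minus 0% ethanol, in the mean of the haploids (x axis) and in the diploid (y axis), for all 5363 genes tested (grey) and for 1 list in each panel (coloured), filled where the changes differ with an adjusted p under 0.05. Points on the dotted line changed alike; the genes that differ lie below it for ribosome biogenesis (63 of 111) and above it for general stress (21 of 45) and the respiratory chain (13 of 35).

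The diploid at 7% ethanol was read against the same 0% arrays, so its changes are not independent of those at 3%. At 7% 1955 genes were higher and 1071 lower than at 0%, which is 36.5% and 20% of those tested. Some genes climbed with each step. YRO2 had 56 and 57.5 at 0%, 399 and 423 at 3% and 1517 and 1467 at 7%. HSP26 had 38.4 and 35.5 at 0%, 113 and 113 at 3% and 667 and 697 at 7%, and HXK1 had 328 and 349, 895 and 873, and 2131 and 2097 at these levels. In each gene the 3 levels did not overlap. These genes were named for their change between 3% and 0% on the same arrays, so this adds no support.

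Other genes were highest at 3%. RGI1 had 928 and 1027 at 0%, 1560 and 1608 at 3% and 550 and 557 at 7%. SER3 had 1046 and 1074 at 0%, 1776 and 1723 at 3% and 195 and 175 at 7%, and CYB2 had 79 and 82.9, 297 and 245, and 123 and 111. CYC1 had 377 and 563 at 0%, 782 and 813 at 3% and 330 and 360 at 7%. HXT3 was lowest at 3%, with 3493 and 3428 at 0%, 1219 and 1177 at 3% and 2625 and 2779 at 7%. HRP1, with 155 and 120 at 0%, 56.8 and 53.6 at 3% and 186 and 181 at 7%, and MIG2, with 52.6 and 59.5, 21.2 and 17.9, and 57.6 and 60.6, had the same order. HXT2 was low at both, with 439 and 453 at 3% and 352 and 431 at 7%.

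Ribosome assembly transcripts were highest at 7%. HAS1 had 144 and 132 at 0%, 107 and 80.3 at 3% and 474 and 434 at 7%, and NSR1 had 315 and 268, 238 and 288, and 1607 and 1564. DBP3 had 146 and 126 at 0%, 229 and 234 at 3% and 759 and 779 at 7%. Of the 111 genes of the list, 10 rose and 2 fell at 3%, and 110 rose and 0 fell at 7%. Of the 74 mitochondrial ribosomal protein genes, 30 rose at 3% and 68 at 7%. Of the 59 amino acid genes under Gcn4, 14 fell at 3% and 50 at 7%.

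**Figure D5:**
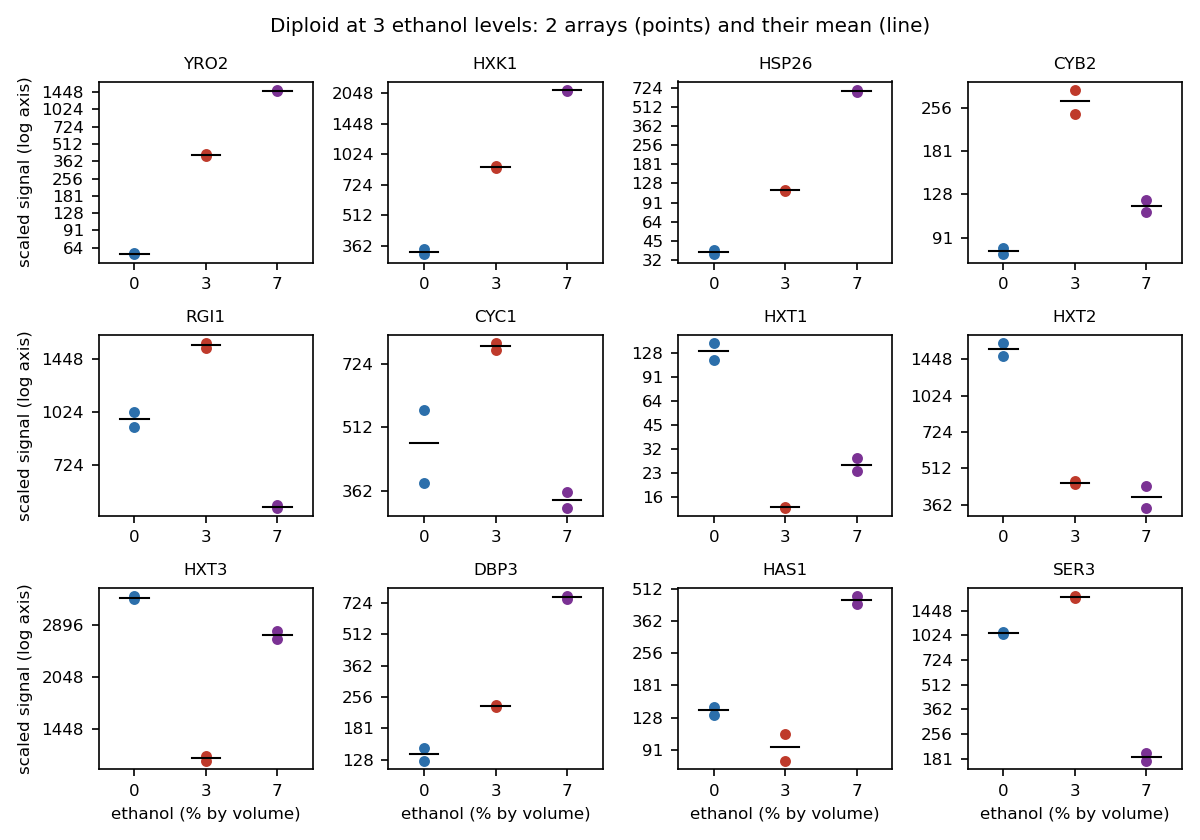
Scaled signal on a log axis of 12 genes in the diploid at 0%, 3% and 7% ethanol, with a point for each of 2 arrays per level and a line at their mean. YRO2, HXK1 and HSP26 were highest at 7%, RGI1, CYB2, CYC1 and SER3 were highest at 3%, and HXT1 and HXT3 were lowest at 3%.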

How the data were processed

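Total RNA of 18 samples was labelled with biotin and hybridised to yeast Affymetrix arrays, 1 sample an array, in 9 groups of 2. The values deposited by the authors are probe-set intensities on a linear scale from GCOS, per the submitters' processing notes, and the GCOS version is not given in the sources used here. Of 10928 probe sets, 5498 read S. cerevisiae genes, 1746 another yeast, 166 were controls and 3518 had no gene or several genes in the platform annotation. Each array was scaled here to a common 2% trimmed mean over the S. cerevisiae probe sets, and log2 of intensity plus 16 was taken. Background was set per array by probe sets for the other yeast, at their 95th percentile (4.60 to 7.58 in scaled intensity over the 18 arrays, and 4.91 to 5.97 on the 4 diploid arrays at 3% and 0%). A gene was tested if above it on at least 2 arrays, by its brightest probe set, which left 5363 of 5449 genes. A fold or log2 difference of dim genes is made smaller by the added 16, and 104 of the genes tested have a probe set that reads related genes.

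Group means of all 18 arrays were fitted with limma 3.58.1 in R 4.3.3 (eBayes with an intensity trend, 9 residual degrees of freedom), and p-values were two-sided, adjusted by Benjamini-Hochberg over the 5363 genes with a threshold of 0.05. The difference between strains was the 3% change of the diploid minus the mean of the 2 haploids' changes. The named genes were the 15 genes that rose most and the 15 that fell most among those called, the 8 largest differences from the haploids in each direction, and members of 46 gene lists. The genes and lists were chosen with earlier results of these data known. The fitting was tested on simulated data. Same-numbered samples were treated as unpaired. Over 36 pairs of groups the correlation of same-numbered deviations was -0.25 to 0.18, with a median of 0.047, and over 0.1 in 11 pairs. This cannot exclude samples handled together, as their numbers may differ between groups. Alternatives were other scalings, pseudocounts, filters, fits and replicates left out. Sequences were not used here.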

Additional observations from a re-analysis of the deposited data

Results flagged for a closer look

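The 3% change differed between the diploid and the mean of the haploids, by limma's test of the difference over 5363 genes, in 215 genes that were higher and 266 that were lower in the diploid. Among the named rises of the diploid the change was larger there for YRO2 by 1.20, HXT7 by 0.84, PUT1 by 1.09, YAR010C by 0.59, SUE1 by 1.61, UBX6 by 0.88, CYB2 by 1.70, EGO4 by 1.53 and ZIM17 by 1.28 on the log2 scale. Among its named falls the difference was -1.45 for HXT1, -0.51 for HXT3, -0.77 for HRP1, -0.67 for NRD1 and -0.94 for RSN1. Among the largest differences it was 1.92 for RGI1, 1.30 for SOL4, 1.30 for TSA2 and 1.25 for CTT1. On the other side it was -1.43 for ZRT1, -1.20 for URA7, -1.15 for MAK21, -1.13 for AAH1, -1.10 for RIX1, -1.09 for SAG1 and -1.09 for KRI1.

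Outside the comparison of named genes, 712 of the 3518 probe sets with no gene or several genes were above background. Of these 41 changed in the diploid, 23 higher and 18 lower at 3% than at 0%, which is 5.76% (108 at an unadjusted p under 0.05). Among the 5363 genes tested 12.4% rose and 7.96% fell (1770 at an unadjusted p under 0.05). The adjustment over those 5363 genes does not cover these probe sets, so the shares are not strictly comparable.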

How the results depend on the processing

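With 2 arrays a group the counts moved with single arrays, and the number of arrays limits the precision. Leaving out 1 diploid array in turn gave 354 to 503 genes higher and 196 to 369 lower, 37 to 41 and 12 to 21 by 2-fold or more, and 123 to 182 higher and 147 to 228 lower than in the haploids. Without scaling between arrays 261 genes were higher and 172 lower, and 88 and 116 differed from the haploids. Adding 1 in place of 16 gave 82 genes at least 2-fold higher, and adding 64 gave 18 higher and 7 lower. A replicate block was also tried, with r = 0.081 between same-numbered deviations of the diploid at 3% and at 0%. The block gave 675 higher and 435 lower, and 222 and 276 that differed from the haploids. None of the 30 largest rises and falls and none of the 16 largest differences changed direction under any alternative run. Of 540 values of these 30 genes under alternatives 529 kept their side of the threshold, and the 11 that did not were 10 of YAR009C and 1 of COS8. Of 254 values of the 16 differences 249 kept it, and the 5 others were of ZIM17, RIX1 and KRI1. Other list members were recomputed as counts for each list. Adding 64 moved PUT1 to 1.05, SUE1 to 0.86, HXT1 to -1.33, YPR015C to -0.51, ENB1 to -0.70 and MIG2 to -0.52. The cause of these shifts was not tested beyond the construction of each alternative.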
